A study of Mus musculus with 86 samples.

Results

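Small RNA of whole testes was compared between mice homozygous for a Btbd18 knockout and heterozygous mice at postnatal day 18 (P18). Each genotype had 3 libraries, so 6 of the 86 samples of the study entered the comparison, and every row of the deposited small RNA count table was kept. All mice were of the C57BL/6 (B6) X 129/SvJ hybrid background. The heterozygous controls (het) carry 1 mutant allele and the knockouts (ko) carry 2, so no library was wild type. Total RNA was isolated with TRI Reagent, small RNA was selected by size while the library was made, and the libraries were built with the NEBNext Multiplex Small RNA kit. None of the 6 samples was treated. The table lists 24276 features, of which 10405 had enough counts to be tested. They comprise 99 of 100 intergenic piRNA loci, 104 of 114 genic piRNA loci, 321 of 1121 miRNA genes, 104 of 119 snoRNA and scaRNA genes, and 9777 of 22822 other features, most of them protein-coding genes. The 11 piRNA loci that were not tested had at most 15 counts in any of the 6 libraries. One het column has a name that no sample title matches, and it is called the het library with no number.

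piRNAs are germline small RNAs that are bound by PIWI proteins and are cut from long single-stranded precursor transcripts. In the mouse testis the piRNAs of the pachytene stage of meiosis come from a set of loci, mostly between genes, whose precursors are switched on as spermatocytes enter pachytene, largely by the transcription factor A-MYB. BTBD18 is a nuclear protein of spermatocytes that is known for its part in the transcription of these loci. miRNAs are shorter, are cut from hairpins by Drosha and Dicer, and act through AGO proteins, and their first pairing contact with a target is the seed, bases 2 to 8.

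The miRNAs that the results turn on are shown first, since members of 1 seed family are described side by side below. The family of miR-34 and miR-449 is known from multiciliated cells and male germ cells. The seed is in capitals, and the sequences and positions are RefSeq's (GRCm38.p6). Mature miR-449a-5p lies at chr13:113037549-113037570 and miR-449c-5p at chr13:113036008-113036028, both inside the span of Cdc20b. miR-34a-5p lies at chr4:150068473-150068494, and miR-34b-5p lies at chr9:51103610-51103632 beside the miR-34c gene. Of Mir34c only the 3p arm is shown, which has another seed than the 5p arms. miR-34c-5p, the arm that belongs to the family, is named only. The 4 5p sequences shown share the seed GGCAGUG, which no other of the 1738 mature entries of that table has. The last entries, miR-92b-3p (chr3:89227126-89227147) and miR-92a-3p (chrX:52741854-52741874), are members of the miR-25/92 seed family and stand for the miRNAs whose call depended on the scaling.
mmu-miR-449a-5p: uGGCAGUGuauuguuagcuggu
mmu-miR-449c-5p: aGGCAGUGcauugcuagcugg
mmu-miR-34a-5p: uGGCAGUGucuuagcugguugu
mmu-miR-34b-5p: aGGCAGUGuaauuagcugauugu
mmu-miR-34c-3p: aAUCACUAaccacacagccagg
mmu-miR-92b-3p: uAUUGCACucgucccggccucc
mmu-miR-92a-3p: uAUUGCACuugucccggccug

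The libraries held 13705033 to 20310440 counts each. Intergenic piRNA loci took 60.94%, 59.31% and 53.55% of the counts in the het libraries (1, the library with no number, and 3) and 23.92%, 9.368% and 8.509% in ko libraries 1, 2 and 3. The mean share was 57.94% ± 3.88 (SD, n = 3) in het and 13.93% ± 8.66 (SD, n = 3) in ko, and no ko library reached the lowest het library. A 2-sided exact permutation test gave p = 0.1, the smallest p that 3 libraries against 3 allow. Ko library 1 stood apart within its genotype by chi-square per degree of freedom. It gave 530 and 518 against the other ko libraries, which gave 29.9 with each other. Het library 3 gave 88.2 and 84.9 against the other het libraries, which gave 21.2. On log2 CPM the ko pairs correlated at 0.984 to 0.991 and the het pairs at 0.979 to 0.983.

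Intergenic piRNAs filled most of each het library, and the mean share of every other class was larger in ko. A share alone cannot separate a rise from the loss of the rest. Genic piRNA loci went from 0.5995% ± 0.0396 to 1.982% ± 0.814 (SD, n = 3 each), miRNA genes from 11.46% ± 1.25 to 23.2% ± 4.17, and other features from 5.162% ± 0.304 to 18.43% ± 3.6. In these 3 classes the genotypes did not overlap (exact permutation p = 0.1 each). snoRNA and scaRNA genes took 22.89% to 27.55% in het, and 22.87%, 53.56% and 50.93% in ko libraries 1, 2 and 3, so the genotypes overlapped (exact permutation p = 0.4). Set against miRNA counts of the same library, intergenic loci had a log2 ratio of 2.341 ± 0.252 in het and -0.8888 ± 0.61 in ko (SD, n = 3 each), a difference of -3.23 (exact permutation p = 0.1).

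**Figure D1:**
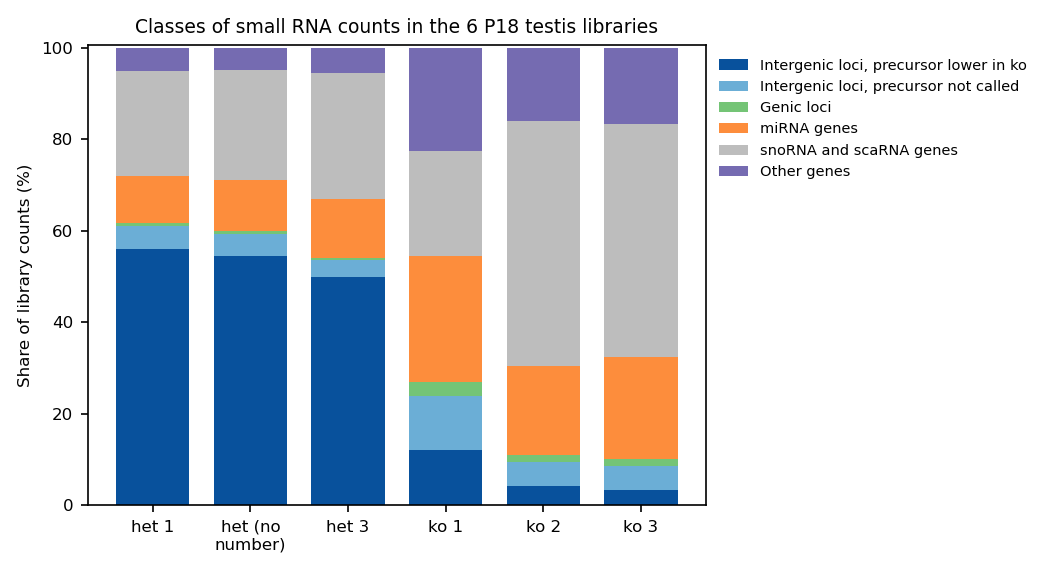
Share of each library's counts (%) in 6 classes, 1 bar for each P18 small RNA library. The dark blue part, the 57 intergenic loci whose precursor was lower in ko testis RNA, fills 49.8% to 56.04% of the het bars and 3.299% to 12.04% of the ko bars.

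The choice of scaling decides much of what follows, and no spike-in is named in the labels. The main fit used TMM factors, which set most features level. Its median log2 fold change (ko over het) over all 10405 features was -0.14. The median was 2.03 when libraries were scaled by total counts, -0.11 with RLE factors, and 1.01 when the library size was the sum of miRNA counts. At an adjusted p under 0.05 (edgeR quasi-likelihood test, Benjamini-Hochberg over all tested features), TMM called 2094 features higher and 1836 lower, total counts 8387 (80.6%) and 68 (0.654%), RLE 2189 and 1722, and miRNA counts 5271 (50.7%) and 111 (1.07%). The background under TMM was therefore 37.8% of features called, 20.1% higher and 17.6% lower. Below, a feature is said to have risen or fallen under all 4 scalings when every scaling called it in that direction. That rule was met by 2094 features upward (20.1%) and 67 downward (0.644%), and values are on the TMM scale unless stated. The labels do not say that the 3 libraries of a genotype came from separate animals, so p-values measure only the spread between these samples.

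Btbd18 itself, at chr2:84659072-84668789, was checked first. In total testis RNA of P18 mice its level in CPM (counts per 1000000 counts of the scaled library) was 16.1, 12.5 and 12.3 in het and 4.22, 2.63 and 3.88 in ko, with no overlap. Its small RNA counts were few, 27, 34 and 25 in het and 65, 32 and 33 in ko. The small RNA log2 fold change was -1.39 ± 0.22 (SE; edgeR adjusted p = 1.17e-04), but -0.23 with miRNA scaling (adjusted p = 0.532) and 0.80 with total counts, so its direction flipped with the scaling. The small RNA reads of Btbd18 do not check the genotype.

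Many of the intergenic piRNA loci fell, while the direction of others depended on the scaling. All are named by chromosome, cytogenetic band and a number. Under TMM 68 of 99 fell and 0 rose, with a median log2 fold change of -2.78 and a range from -11.12 to 0.58. With total counts 47 were called lower and 21 higher, and with miRNA scaling 47 and 4. Under all 4 scalings 47 of 99 fell and 0 rose, beside the 0.644% of all features that fell. On the TMM scale ko and het libraries did not overlap at 90 of the 99 loci, beside 52.3% of all features. This was not particular to these loci, since it held for 81.6% of miRNA genes and 96.2% of snoRNA and scaRNA genes. Of the 30 loci with most het counts, 28 fell under all 4 scalings.

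The most abundant loci were a pair in the same band of chromosome 17. 17-qA3.3-26735 was at 269911, 271200 and 284580 CPM in het and at 17643.6, 8642.61 and 5992.48 in ko, a log2 fold change of -4.68 ± 0.74 (SE; edgeR adjusted p = 1.01e-04). 17-qA3.3-27363 was at 180065, 184019 and 179213 CPM in het and at 7567.64, 3773.56 and 2381.62 in ko (-5.31 ± 0.77, adjusted p = 4.59e-05). Both lost most of their small RNA but were still among the loci with most counts in ko, with 680162 and 291733 raw counts in ko library 1.

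Other abundant loci were nearly emptied. 9-qC-31469 was at 111203, 120352 and 96356.8 CPM in het and at 208, 189 and 99.8 in ko (log2 fold change -9.37 ± 0.90, edgeR adjusted p = 8.29e-07). 2-qE1-35981 was at 84354.5, 100329 and 67339.3 CPM in het and at 764, 473 and 244 in ko (-7.41 ± 0.87). 7-qD1-9417 showed the greatest change of the 99 loci, from 16456.4, 18308.2 and 12370.6 CPM to 7.73, 7.71 and 5.68 (-11.12 ± 1.16, edgeR adjusted p = 1.67e-06). In all 3 loci every ko library lay far below every het library. 7-qD1-16444 (-10.71 ± 1.02), 6-qF3-28913 (-10.50 ± 1.09), 15-qD1-17920 (-9.82) and 7-qD2-24830 (-9.36) were of the same kind, while 14-qA3-19970 (-6.99) and 10-qC1-117 (-4.09) changed less.

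A pair of abundant loci differed least. 8-qC5-8200 was at 32131.6, 34401.8 and 25329.2 CPM in het and 9312.15, 7596.3 and 6903.19 in ko. Its log2 fold change of -1.95 ± 0.61 passed the edgeR test under TMM (adjusted p = 0.0183), but it was -0.78 with miRNA scaling (adjusted p = 0.322) and 0.30 with total counts, and the TMM call was lost without ko library 2 or 3. 6-qC3-6258 was at 19150.6, 20708.7 and 15047.9 CPM in het and 7298.56, 5526.18 and 5073.11 in ko (-1.62 ± 0.63, adjusted p = 0.0508; -0.45 with miRNA scaling). These were the smallest changes among the 30 loci with most het counts, ahead of 10-qC1-12816 (-4.56), 17-qA3.3-26735 and 5-qF-14224 (-4.98).

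**Figure D2:**
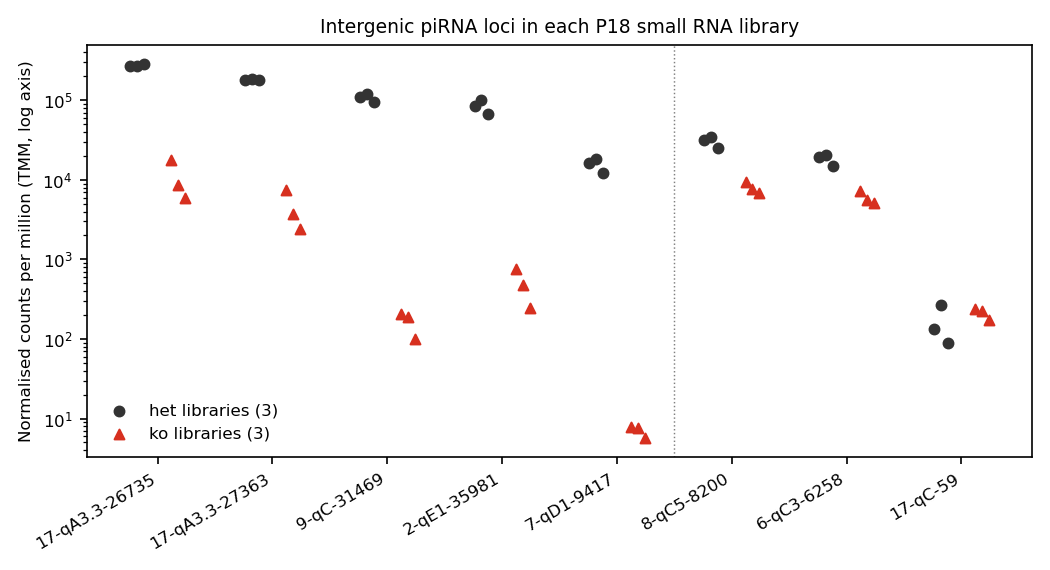
TMM-scaled CPM on a log axis for 8 intergenic loci, 1 point for each of the 3 het (circles) and 3 ko (triangles) libraries. The 5 loci on the left separate widely (7-qD1-9417 from 12370.6 CPM or more to 7.73 or less), 8-qC5-8200 and 6-qC3-6258 separate by a few fold, and at 17-qC-59 the genotypes overlap.

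The loci split by what happened to their precursor. In total testis RNA of separate P18 libraries (3 het, 3 ko; background 3.43% of 16334 features called, 3.07% lower), the transcripts of 57 of the 99 loci were lower in ko, 0 were higher and 42 were not called. Whether the small RNA and the testis RNA libraries share animals is not given in the sources used here. Small RNA of 47 of the 57 fell under all 4 scalings, and 52 fell under TMM. Small RNA of 0 of the 42 fell under all 4 scalings, and 16 fell under TMM. The median small RNA log2 fold change was -6.34 for the 57 and -1.37 for the 42, or -5.16 and -0.21 with miRNA scaling, with -0.14 (TMM) and 1.01 (miRNA scaling) over all features.

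As shares of the library, the 57 loci went from 56.04%, 54.52% and 49.8% in het to 12.04%, 4.162% and 3.299% in ko. The 42 loci went from 4.902%, 4.785% and 3.758% to 11.88%, 5.207% and 5.21%. Per miRNA count of the same library the 57 differed by -4.29 on the log2 scale (exact permutation p = 0.1, the smallest possible). The 42 differed by -0.3847 (exact permutation p = 0.2), with overlapping libraries. With miRNA scaling 4 of the 42 were called higher and 0 lower, over a range from -1.65 to 1.75.

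Across the 99 loci the log2 fold changes of small RNA and of precursor had a Pearson r of 0.928 (Spearman rho 0.861), given as a description over loci that share their libraries. Within the 57 r was 0.864, and within the 42 it was 0.0522. The medians of the 57 were -6.34 in small RNA on the TMM scale, -4.07 with total counts, and -3.65 in precursor, so the gap between small RNA and precursor depended on the scaling. On the TMM scale 17-qA3.3-27363 fell by 5.31 in small RNA and by 2.16 in precursor, and 9-qC-31469 by 9.37 and 4.77. The precursor of 8-qC5-8200 differed by 0.01 (edgeR adjusted p = 0.991), and that of 6-qC3-6258 by -0.19 (adjusted p = 0.630).

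**Figure D3:**
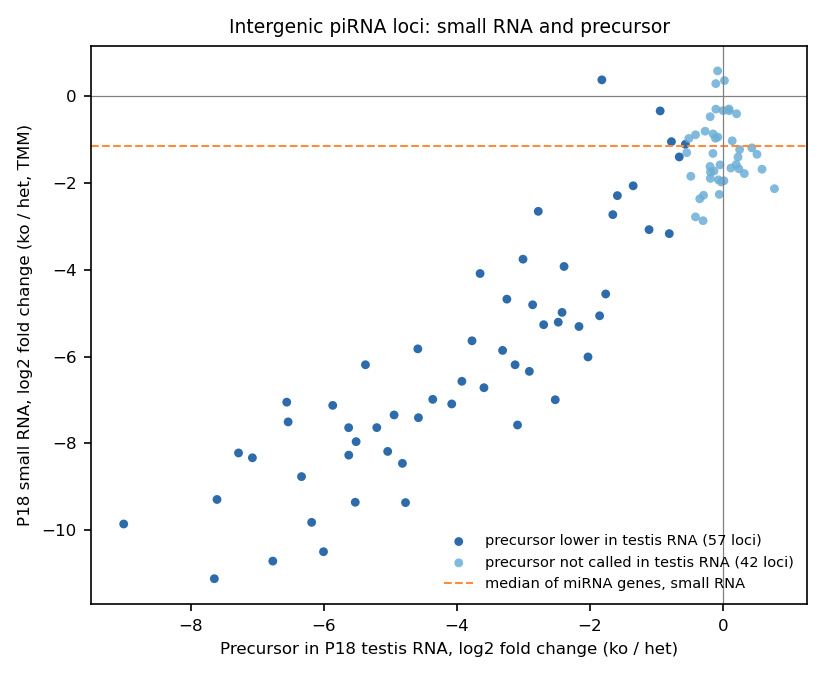
Log2 fold change of each of 99 intergenic loci in P18 testis RNA (x axis) and in P18 small RNA, TMM scale (y axis), with loci whose precursor was lower in dark blue (57) and not called in light blue (42), and the miRNA median as a dashed line. The dark points run from near 0 to -11.12, and the light ones gather around -1.37.

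In 10 of the 57 loci the precursor was lower and the small RNA did not fall under all 4 scalings. The clearest was 17-qC-59, with 134, 264 and 87.9 CPM of small RNA in het and 236, 225 and 171 in ko, a log2 fold change of 0.38 ± 0.56 (edgeR adjusted p = 0.616). Its precursor changed by -1.82 ± 0.18 (adjusted p = 3.81e-06), from 190, 147 and 109 CPM to 37.3, 43.3 and 45.8, with no overlap. At this locus the transcript was lower in ko while the small RNA libraries overlapped. The others were 14-qA3-284, 4-qD2.2-2182, 8-qA4-332, 11-qB1.3-590, 1-qE3-706, 7-qB5-6255, 6-qF3-3040, 2-qF1-2536 and 17-qA3.3-352. They were picked out after their values were seen.

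Neighbouring loci did not always change together. The 99 loci lie in 52 cytogenetic bands, and 12 bands hold at least 3 loci. All loci fell under all 4 scalings in 3 of the 12 bands, none did in 3, and 6 bands were mixed. In 10-qC1 all 5 loci fell, from -4.09 to -8.77. In 13-qA5 none of the 5 fell under all 4 scalings, with log2 fold changes from -0.29 to -1.75. In 17-qA3.3, the band of the most abundant pair, the third locus, 17-qA3.3-352, was at -0.34.

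Genic piRNA loci, which lie in genes and often in their 3' ends, were called in both directions. Under all 4 scalings 12 of 104 rose (11.5%) and 2 fell (1.92%), beside 20.1% and 0.644% of all features (7 rose without the het library with no number, and 1 fell without ko library 3), and under TMM 12 were called higher and 30 lower (median -0.56). With total counts 88 were called higher and 2 lower, and with miRNA scaling 38 and 3. Their precursors were lower at only 5 of 102 loci tested in testis RNA, and r between small RNA and precursor was 0.289 over those 102. Many were thinly covered: 44 of the 104 had under 30 counts in every het library.

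The genic loci that fell were pi-1700016M24Rik and pi-Arhgap20. pi-1700016M24Rik was at 198, 175 and 336 CPM in het and 7.96, 5.54 and 3.35 in ko (-5.38 ± 0.48, edgeR adjusted p = 5.81e-07), and its testis transcript fell by 1.65 (adjusted p = 5.64e-06). It changed like the intergenic loci in both kinds of library. pi-Arhgap20 was at 10.1, 11.7 and 4.49 CPM in het and 0.986, 0.637 and 0.159 in ko (-3.71 ± 0.41), with a testis difference of -0.16 (adjusted p = 0.675). Among those that rose, pi-Uhmk1 went from 186, 179 and 185 CPM to 396, 330 and 320 (0.93 ± 0.24, adjusted p = 0.00637). pi-Tktl2 (1.48 ± 0.23), pi-Hjurp (1.53 ± 0.29), pi-Tacc1 (0.92), pi-Ing5 (1.60) and pi-Exoc8 (3.16) rose too, the last from 4, 1 and 0 counts. The pi-Ing5 call was lost without the het library with no number or without het library 3. pi-Rc3h1 (-2.59) passed under TMM, as did pi-Strbp (-1.55), pi-Tmem194 (-1.15) and pi-Cdc42ep3 (-1.66), and the last 3 turned positive with total counts.

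miRNA genes moved together on the TMM scale: 236 of 321 were called lower and 0 higher, with a median of -1.15 and quartiles of -1.37 and -0.98. This follows the scaling: with total counts 159 were called higher and 5 lower, and with miRNA scaling 5 higher and 6 lower with a median of 0.00. Under all 4 scalings 4 of 321 fell, beside 0.644% of all features. They were Mir328, Mir449a, Mir449c and Mirlet7f-1. Mirlet7f-1 had 130, 113 and 1020 counts in het and 299, 139 and 174 in ko, and it was not among them without het library 3 or without any of the 3 ko libraries. Mir375 joined them without ko library 1, and Mir1949 without het library 1 or 3. The other 3 fell under all 4 scalings also when any of the 6 libraries was left out.

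Mir449a had 1263, 1354 and 1119 counts in het and 703, 202 and 219 in ko, or 199, 227 and 193 CPM and 18.2, 12.9 and 11.6. Its log2 fold change was -3.85 ± 0.52 (SE; edgeR adjusted p = 2.40e-05), and -2.67 with miRNA scaling and -1.58 with total counts. Mir449c, with few counts, went from 25.5, 23.1 and 26.6 CPM to 2.08, 2.80 and 2.82 (-3.30 ± 0.34, adjusted p = 1.67e-06). In both, every ko library lay below every het library. Cdc20b, the gene that holds both, was low in testis RNA and differed by -0.79 ± 0.40 (adjusted p = 0.334), which did not pass the test.

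The rest of the seed family differed less. Mir34c, the most abundant member, was at 10467.9, 13214.7 and 9810.5 CPM in het and 2640.6, 2170.2 and 2218.1 in ko (-2.25 ± 0.48, edgeR adjusted p = 0.00148), but -1.09 with miRNA scaling (adjusted p = 0.0769) and -0.01 with total counts. Mir34b was at -2.02 ± 0.41 (adjusted p = 0.00108), and -0.84 with miRNA scaling (adjusted p = 0.157). Mir34a was at -0.89 (adjusted p = 0.0193), and 0.25 with miRNA scaling and 1.25 with total counts, so its direction flipped, and its TMM call was lost without het library 3. All 5 tested members passed under TMM, and Mir449a and Mir449c alone of the 5 passed under all 4 scalings. Differences between members were not tested.

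Mir328 lies at chr8:105308364-105308460, inside the span of Elmo3. It had 3016, 2830 and 2854 counts in het and 1402, 628 and 687 in ko, or 475, 474 and 493 CPM and 36.4, 40.0 and 36.5. The log2 fold change was -3.67 ± 0.29 (edgeR adjusted p = 2.32e-07), and -2.53 with miRNA scaling (adjusted p = 3.45e-06) and -1.49 with total counts (adjusted p = 0.00365). The libraries of each genotype were close to each other and the genotypes did not overlap. Elmo3 in testis RNA differed by 0.37 ± 0.15 (adjusted p = 0.185).

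Mir375, best known from endocrine cells, was at 310, 355 and 225 CPM in het and 54.2, 32.1 and 26.5 in ko (-2.98 ± 0.54), and it passed also with miRNA scaling (-1.78, edgeR adjusted p = 0.0247) but not with total counts (-0.66, adjusted p = 0.144). Among the most counted miRNAs Mir34c, Mirlet7g (-1.15, adjusted p = 0.0438), Mir99a (-1.14, adjusted p = 0.0475) and Mir30a (-1.11, adjusted p = 0.0349) passed under TMM. Mirlet7i (-1.05, adjusted p = 0.0605), Mir148a (-0.88, adjusted p = 0.437) and Mir143 (-1.51, adjusted p = 0.192) did not. Neither did Mir881, of the X-linked cluster expressed in male germ cells (-1.06, adjusted p = 0.0840). Of the 17 tested members of that X-linked cluster 13 passed under TMM and 0 under all 4 scalings, with a median of -1.16, and the cluster took 32.17% to 34.17% of miRNA counts in het and 31.6% to 36.82% in ko. The miR-17-92 clusters (11 of 13 under TMM, 0 under all 4), the let-7 family (10 of 12, 1), the miR-183 cluster (3 of 3, 0) and the imprinted Dlk1-Dio3 cluster (17 of 27, 0) also moved with the class. No member of the miR-290 cluster of embryonic stem cells had enough counts.

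**Figure D4:**
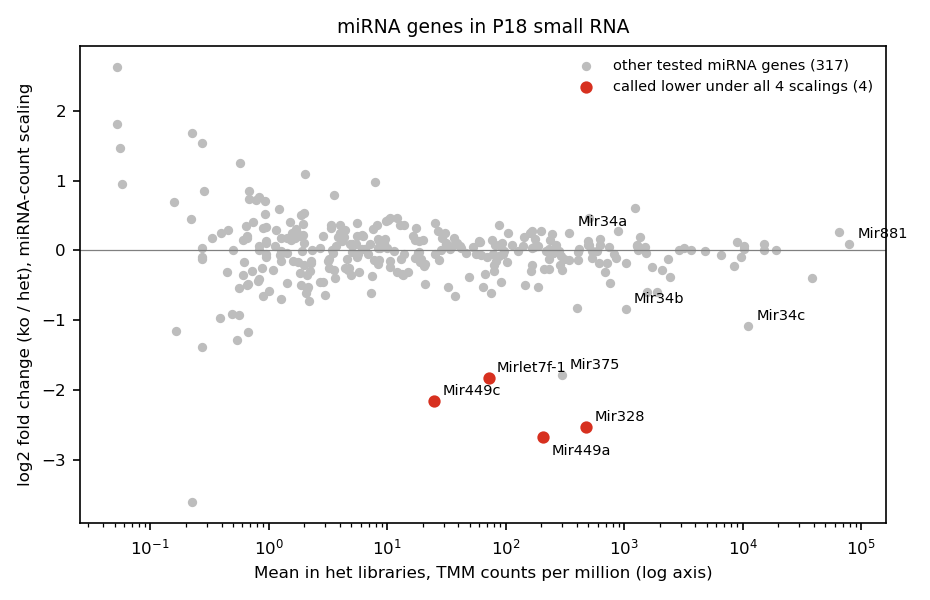
Log2 fold change of 321 miRNA genes with miRNA scaling (y axis) against the mean level in het libraries in TMM-scaled CPM (log x axis), with the 4 genes that fell under all 4 scalings in red. Mir328, Mir449a, Mir449c and Mirlet7f-1 lie between -1.8 and -2.7, while Mir881, among the most abundant, lies at 0.08.

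snoRNA and scaRNA genes, small guides of RNA modification, gave no call under all 4 scalings. Under TMM 90 of 104 were lower and 0 higher (median -1.30), with total counts 8 were higher, and with miRNA scaling Snora61 (-1.31) and Snora23 (-1.62) were lower. Snora61 had only 9 to 24 counts in het. The class varied more between ko libraries 1 and 2 than between genotypes.

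Small RNA counts of other genes rose in large numbers. Under all 4 scalings 2082 of 9777 rose and 14 fell, so the rises made 21.3% of the class beside 20.1% of all features. Most of all tested features belong to this class, so the 2 shares are hardly separate. Of genic loci 11.5% rose, and of intergenic loci, miRNA genes and snoRNA and scaRNA genes 0 did. Of the other genes TMM called 1412 lower, where total counts called 8111 higher and 14 lower and miRNA scaling 5224 and 53. Of the 1960 with a biotype, 1904 are protein-coding and 44 lncRNA. Their median log2 fold change was 1.23 (range 0.50 to 6.65), 249 rose over 4-fold, and together they went from 0.7093%, 0.6128% and 0.7087% of counts in het to 11.36%, 5.818% and 6.334% in ko. The sum was highest in ko library 1, and without that library 1634 of them were called again under all 4 scalings.

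Rbm15b, an m6A-writer adaptor at chr9:106880928-106887075, had 33, 34 and 37 counts in het and 2191, 749 and 854 in ko, or 5.20, 5.69 and 6.39 CPM and 56.8, 47.7 and 45.4 (3.12 ± 0.23). Its testis mRNA differed by 0.10 (edgeR adjusted p = 0.687). The kinase gene Dyrk1b (3.66 ± 0.28) and the zinc finger gene Zfp536 (4.07 ± 0.32) rose as well with testis mRNA not called, as did Perm1 (3.55), Gpr89 (3.44), Ttbk1 (3.23) and Arhgap35 (2.78). The manchette gene Rimbp3 rose in small RNA (3.91 ± 0.29) while its testis mRNA fell by 0.63 (edgeR adjusted p = 0.0497). Of the rising genes 2065 were also tested in testis RNA, where 11 were higher, 74 lower and 1980 not called, 4.12% called beside 2.7% of all other features. A rise in mRNA was thus called for 11 of these genes.

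The same genes were looked up in piRNA-enriched small RNA of P18 testes, a separate set of 2 het and 2 ko libraries. There the library labelled ko replicate 1 held 86.63% intergenic piRNA counts, against 45.92% in ko replicate 2 and 91.79% and 92.87% in het, so it was closer to the het libraries. With it, 994 of 2068 rising genes were higher (background 8.7%), and 1 of 98 intergenic loci was lower (background 1.05%). Without it, 1544 of 2080 genes were higher (background 14.2%) and 24 of 99 intergenic loci lower (background 3%), but ko was then 1 library, assumed to vary like the other enriched groups. These calls depend on single libraries. With every library 1254 features were called. Fits without het replicate 1, het replicate 2 or ko replicate 2 called far fewer, and each left 1 library in a group.

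Among genes of the piRNA pathway 5 of 25 tested rose under all 4 scalings and 0 fell, beside 20.1% and 0.644% of all features, and the median was -0.25 beside -0.14. Under TMM 6 of the 25 were called lower, beside 17.6% of all features (Rnf17, Mybl1, Piwil1, Tdrd7, Ddx4 and Tex15). Tdrd6, a Tudor protein of the chromatoid body, went from 10.1, 9.88 and 7.94 CPM to 118, 104 and 105 (3.55 ± 0.29, edgeR adjusted p = 3.22e-07). Its testis mRNA stood at 967, 690 and 759 CPM in het and 544, 741 and 448 in ko, a difference of -0.48 (adjusted p = 0.13). The others were Exd1 (2.42), which acts in piRNA biogenesis, Gpat2 (0.89), Tdrd5 (0.84) and Fkbp6 (0.79). The Tdrd5 call was lost in 4 of the fits with 1 library left out and with DESeq2, and the Fkbp6 call without the het library with no number. Piwil1, the pachytene PIWI protein, was at -1.24 (adjusted p = 0.0210) and at -0.08 with miRNA scaling. The testis mRNA of none of the 25 was called.

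Of 12 tested miRNA biogenesis genes 6 rose under all 4 scalings, beside 20.1% of all features (median 0.53): Tnrc6c (1.66 ± 0.18) and Ago3 (1.44 ± 0.19), Tarbp2 (1.12), Xpo5 (0.79), Tnrc6b (0.73) and Ago1 (0.59). Those for Xpo5, Tnrc6b and Ago1 were each lost in at least 4 of the 6 fits with 1 library left out.

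Markers of the cell types of the testis were counted in the same libraries. Late pachytene spermatocyte genes rose at 6 of 14 under all 4 scalings, beside 20.1% of all features (median 0.44; Tdrd6, Spag6, Hspa2, Pgk2, Adad1 and Kctd19). Adam3 (-1.96) and Piwil1 were lower under TMM, and the testis mRNA of Pgk2 (-0.74) and Adad1 (-0.46) was lower. The summed level of these spermatocyte genes went from 41.8 to 50.0 CPM in het to 317 to 624 in ko. The sums of the other cell type lists were higher in ko too. Elongating spermatid genes went from 4.33 to 5.71 CPM in het to 21.8 to 43.0 in ko. Sertoli markers went from 3.22 to 3.64 CPM to 9.05 to 12.9, and Leydig markers from 8.96 to 11.2 to 97.8 to 179. Of 9 elongating spermatid genes 2 rose under all 4 scalings, beside 20.1% of all features: Spata18 (2.34) and Tssk6 (1.14). Prm1 (-1.32) was lower under TMM, and the testis mRNA of Oaz3 (-0.76), Actl7b (-0.57) and Gapdhs (-0.90) was lower. Of 15 Sertoli cell markers 0 rose and 3 were lower under TMM only (median -0.93), beside 17.6% of all features lower under TMM. Of the 10 Leydig cell markers listed only 2 were tested. Star rose (1.48 ± 0.23), the other was not called under TMM, and the median of the 2 was 0.21. The 2 tested adipose markers passed no test. The sums cover every listed gene, tested or not, so a single gene can carry them. They are CPM of total counts, on which scale the median of all features was 2.03 on the log2 scale. In bulk testis fewer cells of a type and less RNA per cell cannot be told apart. The part of cell composition in the small RNA changes was not tested.

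The 14 genes that fell under all 4 scalings had few counts, and 4 to 16 fell when 1 library was left out, with 4 without ko library 2 or 3. Chst1, a keratan sulfate sulfotransferase gene at chr2:92599632-92615252, went from 18.1, 21.3 and 15.5 CPM to 0.441, 0.382 and 0.425 (-5.40 ± 0.38), and its testis mRNA fell by 3.91 (edgeR adjusted p = 1.25e-10), from 77.6, 72.4 and 48.0 CPM to 5.8, 4.4 and 2.3. It changed in both RNA classes. The early response gene Arc fell by 3.67 ± 0.38 in small RNA and by 1.20 in testis RNA. Of the 13 tested in testis RNA these 2 were lower, Scpep1 was higher (0.52) and 10 were not called. Pcdhgc3 (-4.96 ± 0.37), Dlg5 (-4.95 ± 0.48), Prok2 (-3.99 ± 0.64) and Hmga1 (-3.92 ± 0.36) fell too, with testis differences of 0.10, 0.21, 0.08 and 0.23, none of them called. Gm10619 had 16, 16 and 23 counts in het and 0 in each ko library.

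No gene on the X chromosome rose under all 4 scalings, a pattern picked out after the values were seen and given as a description. In pachytene spermatocytes the X chromosome is known to be transcriptionally silenced. Under all 4 scalings 0 of 215 tested X genes rose, beside 1960 of 8970 autosomal genes (21.9%) and 16.5% to 26.4% on single autosomes. The median log2 fold change was -1.07 for X genes and -0.03 for autosomal genes, or 0.07 and 1.12 with miRNA scaling. With total counts 33.0% of X genes and 84.5% of autosomal genes were called higher, and with miRNA scaling 1.4% and 55.2%. Leaving out any of the 6 libraries also gave 0 rising X genes under TMM.

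X genes were less covered, with a median of 0.599 CPM in het beside 2.05 for autosomal genes. Split into 5 bins by het level over all these genes, 0 of 129, 45, 20, 15 and 6 X genes rose, beside 8.48% of autosomal genes in the lowest bin and 39.7% in the highest. Per miRNA count, the X genes together differed by 0.2181 on the log2 scale, and autosomal genes without the 5 most counted by 1.672 (exact permutation p = 0.1 each). In testis mRNA the medians were 0.07 for X and 0.00 for autosomes. X-linked miRNA genes (42) and autosomal ones (270) both had a median of -1.15.

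**Figure D5:**
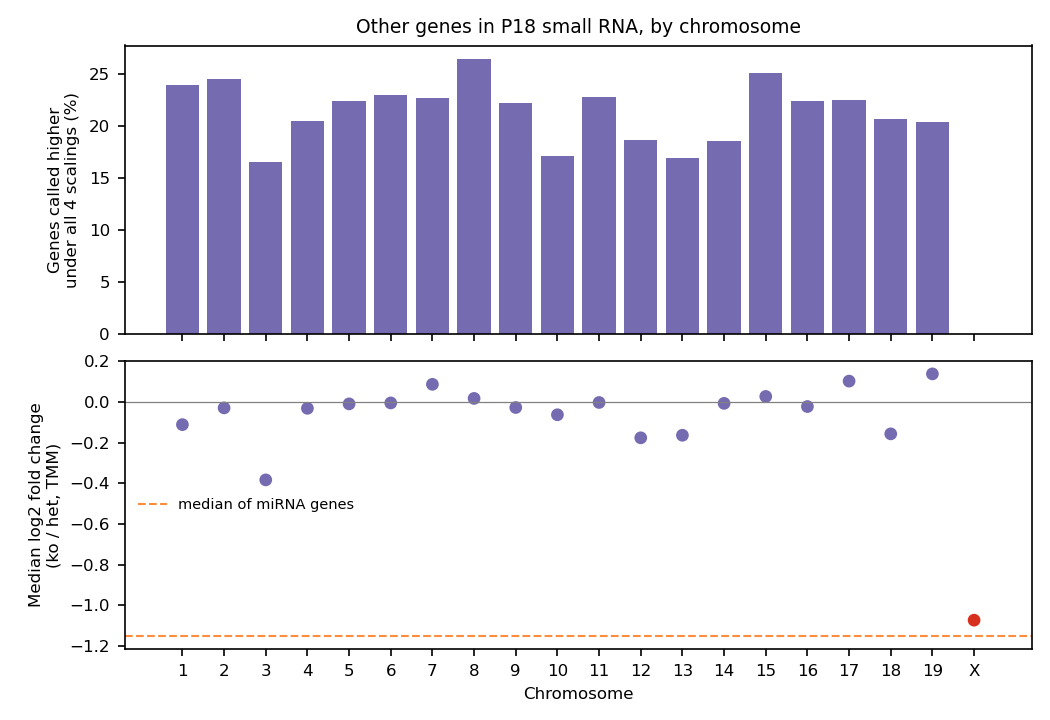
Other tested genes by chromosome: share that rose under all 4 scalings in % (top) and median log2 fold change on the TMM scale (bottom, miRNA median dashed). Autosomes lie between 16.5% and 26.4%, and X at 0 with a median of -1.07.

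The same contrast at P14, with 2 libraries for each genotype, gave the loss of intergenic piRNAs already (background 2.32% of features called, 0.923% lower): 51 of the 57 loci with a lower P18 precursor and 4 of the 42 others were lower. The het libraries of P14 stood apart from each other, with 22.01% and 75.52% of counts in intergenic loci. Mir449a (-4.22, edgeR adjusted p = 9.89e-04) and Mir449c (-3.33) were lower at P14 as well. Mir328 was not called there (-0.23, adjusted p = 0.834), at 280 and 290 CPM in het and 306 and 181 in ko. The difference between the P18 and P14 effects passed the test for Mir328 (-3.45, adjusted p = 0.00195) and for 7 other features (0.0769% of features in all). When 1 of the 6 P18 libraries was left out, 5 of the fits called Mir328 alone. These counts are on the TMM scale, where 0 intergenic loci passed the test of the difference. With total counts 37 intergenic loci passed it, all 37 with a positive P18 minus P14 difference. Intergenic loci also passed with miRNA scaling. Rbm15b (1.81 ± 0.28) and Tdrd6 (2.13 ± 0.36) rose at P14 too, with 143 of the 2082 rising genes (background 1.39% higher). At P10, when few spermatocytes have reached pachytene, edgeR called 0 features, with 322 at an unadjusted p under 0.05. The P18 and P10 effects differed for 931 features (8.95%, 3.27% lower at P18), among them 34 intergenic loci.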

How the data were processed

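The deposited tables hold raw counts of reads for each feature. For small RNA the authors used TopHat and featureCounts on mm10, and for testis RNA also cutadapt 1.8.1, TopHat2 2.1 and Subread 1.4.6-p3, per the submitters' processing notes. Strand, multiple matches and the annotation are not given in the sources used here. Counts were fitted with edgeR 4.0.16 (R 4.3.3, limma 3.58.1) by the quasi-likelihood test, over all 14 small RNA libraries with filterByExpr and TMM. The biological coefficient of variation was 0.233. Alternatives were total-count, RLE and miRNA-count scaling, DESeq2 1.42.0, no filter, P18 libraries alone, a 1.5-fold threshold, a replicate block and leaving out each library. Shares and ratios used exact permutation tests, and reads are not independent molecules. Features were named by smallest p in each class, most counts, smallest change among abundant loci, and membership of fixed lists. Members and lists were chosen with earlier results of these data known. RefSeq symbols matched 92.9% of features.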

Additional observations from a re-analysis of the deposited data

Results flagged for a closer look

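On the TMM scale the genotype effect differed between P18 and P14 for 8 features (edgeR test of the difference, adjusted p from 0.00195 to 0.0422). The test was over 6 P18 and 4 P14 libraries. When 1 P18 library was left out, 5 of the 6 fits called Mir328 alone, so the other features named here lost their calls in these 5 fits. Without het library 3 the test called 8 features, all lower at P18. The P18 minus P14 log2 difference was -3.45 for Mir328, -1.88 for the vault RNA Vaultrc5, -2.99 for Tmem38b and -2.56 for Snora61. It was 1.77 for Fam160a2, 2.04 for Lrrc24, 2.39 for 9430020K01Rik and 4.40 for 9630028B13Rik. Mir328 was at 181 to 335 CPM in the 8 libraries of P10 and P14 and at 36.4 to 40.0 in P18 ko. Its difference had an adjusted p of 0.0629 with total counts, 0.00246 with RLE and 0.0074 with miRNA scaling. 9630028B13Rik had 1, 0 and 1 counts in P18 het libraries and 136, 52 and 51 in ko, and Snora61 had 6 to 24 counts in the 6 P18 libraries.

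Between P18 and P10 the effect differed for 931 features (8.95%), 34 of them intergenic piRNA loci. The P18 minus P10 log2 difference was -3.41 for Mir328, -3.52 for Mir449a and -2.93 for Mir449c.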

How the results depend on the processing

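With total counts 8455 features were called, 90 genic loci, 8 snoRNA and scaRNA genes and 8125 other features. On that scale the P18 minus P14 test called 409 features and 37 intergenic loci, all 37 with a positive difference. The P18 minus P10 test called 3939 features. With miRNA scaling 11 miRNA genes, 2 snoRNA and scaRNA genes and 5277 other features were called, and the age tests called 3208 features with 37 intergenic loci (P14) and 1955 (P10). With no filter the P14 test called 143 features and 19 intergenic loci. Against a 1.5-fold change 1922 features, 15 genic loci, 122 miRNA genes, 41 snoRNA and scaRNA genes and 1688 other features were called. On only the 6 P18 libraries 4392 features, 90 intergenic loci and 62 genic loci were called.

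Among named features called under TMM or under the alternative, the log2 fold changes that turned positive with total counts were pi-Strbp 0.58, pi-Tmem194 1.10, pi-Cdc42ep3 0.58, Mir92b 0.40, Mir130b 0.53, Mir92-2 0.56, Mir499 0.74, Mir350 0.82, Mir128-1 0.59, Mir19a 0.74, Scarna17 0.72, Snord88c 0.68, Vaultrc5 0.089, Mir148a 1.28, Mirlet7g 1.02, Mir99a 1.03, Mir30a 1.04, 8-qC5-8200 0.30, Btbd18 0.80, Mir34b 0.26 and Mir34a 1.25. With miRNA scaling pi-Tmem194 (0.0011), Mir99a (0.0058), Mir30a (0.026) and Mir34a (0.25) did. Named features called in neither fit also changed sign, such as Mir881 (1.09 with total counts and 0.084 with miRNA scaling). The cause was not tested.

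Leaving out 1 library gave 2934 to 3479 features, 54 to 66 intergenic loci, 26 to 33 genic loci, 168 to 236 miRNA genes, 62 to 99 snoRNA and scaRNA genes and 2581 to 3069 other features. Under all 4 scalings it gave 44 to 47 falling intergenic loci and 1633 to 1840 rising other genes. The age tests gave 1 to 8 features and 0 intergenic loci (P14), and 626 to 797 and 30 to 35 (P10). Testis RNA gave 53 to 60 intergenic and 2 to 6 genic loci, and piRNA-enriched libraries 3 to 2275 features and 0 to 24 intergenic loci. Share differences ranged from -49.0 to -28.63 points (intergenic), 0.896 to 1.63 (genic), 5.27 to 13.6 (miRNA), 6.16 to 27.4 (snoRNA and scaRNA) and 11.2 to 14.4 (other), and the log2 ratio to miRNA counts from -3.57 to -2.98.

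On the libraries with a certain number (1 and 3), the replicate block gave 3064 features and 67 intergenic loci, and without the replicate block 2444 features, 22 genic loci and 2125 other features were called. Deviations of same-numbered libraries correlated at 0.0881 and 0.145, and those of libraries 1 and 3 across numbers at -0.15 and -0.0946, and the numbers were not taken as pairs. Over 94 named features and 1386 values, 1209 kept direction and call, 135 kept direction but lost the call, and 25 were reversed.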

Other observations

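Most precursors of the intergenic loci rose with age in het testis RNA. Rising with age meant an edgeR adjusted p under 0.05 and a log2 fold change of at least 2 from P10 to P18. By that cut 96 of the 99 tested intergenic loci rose in het testis RNA. The other 3 did not meet it, too few for a comparison of the small RNA change between the groups. Of the genic loci 16 rose with age by that cut, with 2 falling and 1 rising in ko small RNA under all 4 scalings. The remaining 88 did not meet it, with 0 falling and 11 rising. They include 2 loci not tested in testis RNA. They also include loci with a smaller rise, such as pi-Strbp (1.74, edgeR adjusted p = 1.51e-09).

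The snoRNA host transcript Gas5 was the other feature with most counts, at 2.467%, 2.519% and 2.905% of the library in het and 2.314%, 5.08% and 5.016% in ko. Like the snoRNA class, it was higher in ko libraries 2 and 3 and not in ko library 1.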
